A study of Brassica oleracea var. italica with 48 samples.

Results

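In broccoli seedlings deprived of potassium, 110 of the 60586 features in the deposited expression table were higher in starved than in fed leaves on day 6 and differed little between starved and fed roots on any sampled day. They were chosen on measured values. A feature was taken when d, the log2 of the mean starved level plus 1 minus the log2 of the mean control level plus 1, was at least 1 in leaves on day 6, when every starved leaf library of that day lay above every control library, and when d in roots stayed within 0.5 of 0 on days 1, 3 and 6. Levels are in TPM, transcripts per 1000000, a unit that scales reads by gene length and by library. The difference in leaves on day 6 and the steadiness in roots are therefore descriptions of how the members were selected and carry no test. The selection did not use the leaf libraries of days 1 and 3 or the form and length of the features.

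Potassium is the main inorganic cation of plant cells, where it sets osmotic pressure and membrane voltage, activates enzymes and balances charge during transport. Roots take it up from the medium through channels and high-affinity transporters, and the xylem carries it to the leaves. It is mobile within the plant, so that a starved plant can move it from older to younger leaves, and leaves are known to show deficiency later than the root sees the loss of supply.

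The plants were wild-type Brassica oleracea var. italica. After 6 days on MS plates they grew in hydroponic culture for 7 days, on a medium that held 2 mM K2SO4, with 16 h of light a day. Some then stayed on this medium as controls, here also called fed, and the others were moved to a medium free of potassium, here called starved. Roots and leaves were sampled after 1, 3 and 6 days, for a total of 48 libraries in 12 groups, with the letters a to d in each. Whether the letters stand for separate plants is not stated in the labels. A p-value here refers to the spread among samples within groups, technical spread included. That spread is pooled over all groups in a fit, as a rule those of the whole tissue, and is shared in part between features. Whole tissue was sequenced, so a change in the share of a cell type and a change of RNA per cell cannot be told apart. None of the feature IDs matched the 53125 genes of the name table used here, so members are given by ID, and their roles and the tissue markers were not analysed here.

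Depth, recovered as whole reads from the steps of the TPM values, ran from 18350942 to 20160203 reads in leaf libraries and from 13819010 to 19735733 in root libraries. The 110 members held at least 98 reads each over the 24 leaf libraries, with a median of 2223, and 16 of them had under 40 reads in the 4 fed leaf libraries of day 6 together. Of the 24 leaf libraries 3 had a limma array weight, a measure of how closely a library follows its group, under 0.2. They were control b and starved d of day 1 and control a of day 3. In roots the same held for control a on day 1 and for starved d on day 3. Control a of leaf day 6 was the highest of the 4 controls for 68 of the 110 members (61.8%), against 32.6% of all features tested. Since the members had to exceed every control, this library had a large part in who was chosen: without it, 256 features met the rule, 108 of the present members among them.

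Of all features, 367 met the leaf limits, and 257 of them were not steady in roots. Among these, 173 had a root d of -0.5 or less on at least 1 day and none at 0.5 or more, 75 had the opposite, and 9 had both. These 257 features are used below as the set most like the members. A further 66 features met every limit of size but had overlapping leaf libraries on day 6. At the edges, the lowest leaf d among members was 1.01 and the nearest feature outside had 0.998, while the largest root d was 0.491 inside and 0.506 outside. Of the members, 38 reached a root d over 0.4 in size on some day and 37 stayed under 0.25 on all of them, so that "steady in roots" covers both small and moderate differences.

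On day 6, starved leaves held the members at 2034 ± 177 TPM in sum and control leaves at 659 ± 116 TPM (SD, n = 4 each). The 4 starved sums were 2238, 1852, 1927 and 2121 TPM for a to d, and the 4 control sums were 832, 608, 610 and 588 TPM. The median d was 1.37, the quartiles were 1.11 and 1.68, and the largest was 2.75. There were 13 members at 2 or more and 67 under 1.5. With limma, a linear model fitted over all features with a shared estimate of the spread, 101 of the 106 members with enough expression to be tested were called higher, with a Benjamini-Hochberg adjusted p of less than 0.05. The background was 886 of 25098 features, or 3.53%, and nothing is read from this count because the same libraries chose the members.

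**Figure D1:**
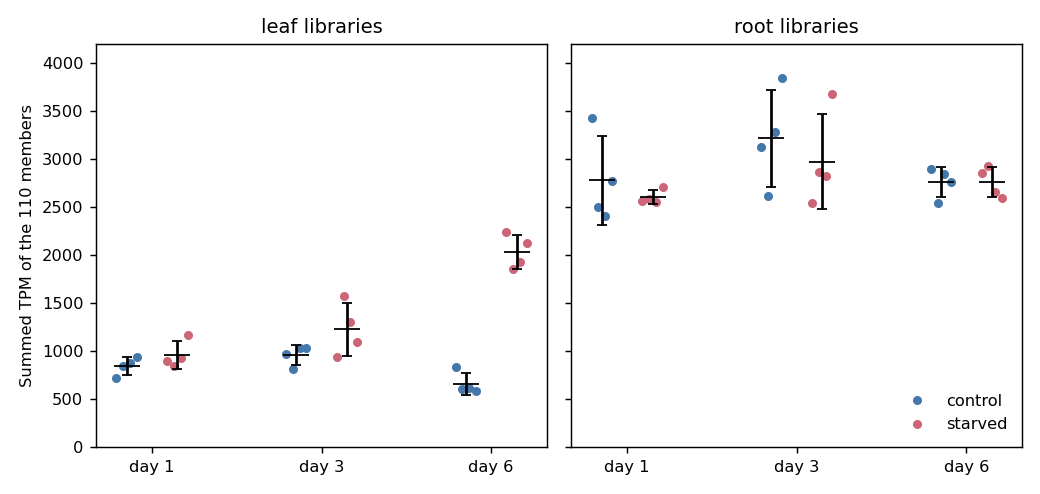
Summed TPM of the 110 members in each library, by tissue, day and treatment; points are libraries a to d, horizontal marks are means and bars are SD (n = 4). In leaves the starved sums of day 6 (1852 to 2238 TPM) lie above all other leaf sums, whereas root group means run from 2605 to 3219 TPM with no such step.

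The members were mostly of low to moderate level. Their means in starved leaves of day 6 ran from 1.55 to 133 TPM, with 52 over 10 TPM and 3 over 100 TPM, and their means in control leaves ran from 0.0875 to 50.7 TPM, with 27 under 1 TPM. The median member stood at 8.93 TPM in starved and 2.53 TPM in control leaves, beside 6.14 and 6.41 TPM for all features tested. The 10 most abundant members made up 42.5% of the starved sum.

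Bo5g085180 had the largest difference. In control leaves of day 6 it stood at 1.06, 0.195, 0.456 and 0.0950 TPM in a to d, which rests on 11, 2, 5 and 1 reads, and in starved leaves at 13.4, 6.13, 7.45 and 8.13 TPM. Its starved libraries of day 6 all lay above every fed leaf library of any day, the highest of which was control c of day 3 at 2.85 TPM. On day 3 its starved leaves held 2.78, 3.62, 8.60 and 1.59 TPM against 0.589, 0.659, 2.85 and 0.683 TPM in controls. Those groups overlapped, through control c, and the log2 difference of 1.17 did not pass (limma, adjusted p = 0.345).

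Bo5g019640 came next, with a d of 2.34. Its control leaves of day 6 held 7.10, 2.87, 2.60 and 2.94 TPM and its starved leaves 30.8, 22.6, 10.15 and 31.4 TPM. Control a was the highest control and starved c the lowest starved library, and the gap between them was small beside the spread of the starved group. In roots its group means ran from 12.9 to 26.3 TPM, so this member was present in roots throughout, above its level in the fed leaves.

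**Figure D2:**
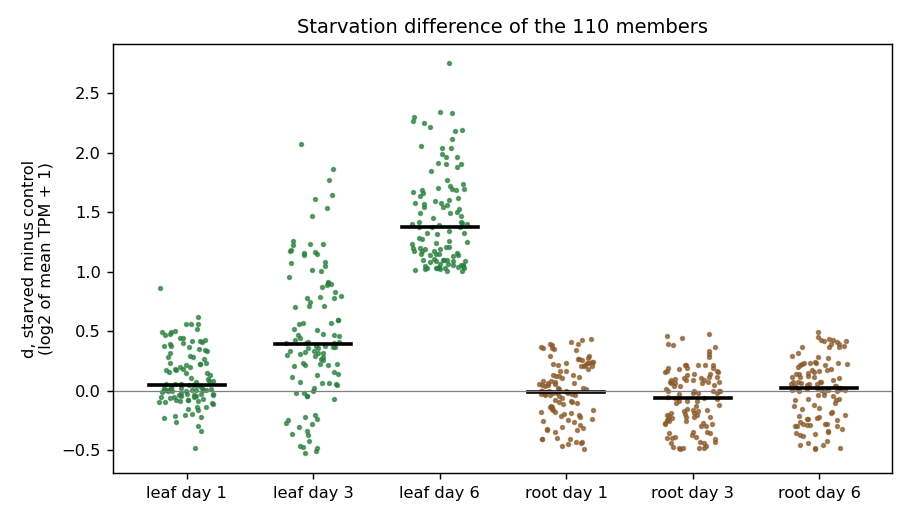
Starvation difference d (log2 of mean TPM plus 1, starved minus control) of each of the 110 members, by tissue and day; each point is a member and each black bar the median. Leaf medians are 0.05, 0.39 and 1.37 on days 1, 3 and 6, and root values stay within 0.5 of 0, as the selection requires.

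The leaf libraries of day 3 and day 1 took no part in the choice. The limma fit, however, pools the spread over all 24 leaf libraries, those of day 6 included. The choice of day 6 groups that do not overlap can therefore bear on its p-values for days 1 and 3, by an amount that was not tested. On day 3 the median d was 0.39, with values from -0.53 to 2.07, and 32 members had a day 3 d that was at least 0.5 of their day 6 d. On day 1 the median d was 0.05, with values from -0.49 to 0.86. In 69 of the 110 members the starved mean was higher on day 3 than on day 1 and higher again on day 6. The last step uses the starved leaves of day 6, in which the members were chosen to be high. For the first step, the log2 difference was above 0 in 78.3% of members tested and in 74.2% of all features. Across members, d on day 3 and d on day 6 had a Spearman rho of 0.27 and a Pearson r of 0.34, a description over 110 genes that share the same libraries.

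In the limma test of day 3, 2 of the 106 members tested rose and 0 fell. Over all features the test called 12 of 25098 higher (0.0478%) and 2 lower (0.00797%). At an unadjusted p under 0.05 there were 47 members, all of them higher, against 750 features higher and 403 lower. The log2 difference was above 0 in 86 of 106 members (81.1%) and in 64.0% of all features, with medians of 0.38 and 0.06. In 27 members (25.5%) every starved library lay above every control library, against 497 features (1.98%), and in 0 members did every starved library lie below, against 308 features (1.23%). Of the 106 members, 8 passed the filter on low values only with the help of the starved leaves of day 6, in which they were chosen to be high. Over the 98 others, 2 were called higher, 79 were above 0 (80.6%) and 22 had no overlap (22.4%), against 63.8% and 1.81% of the 24699 features filtered in the same way. Of the 257 features that met the leaf limits but not those for roots, 250 were tested, of which 7 were called higher, 231 were above 0 (92.4%), 146 were higher at an unadjusted p under 0.05 and 62 had no overlap (24.8%), with a median of 0.62. The difference between these features and the members was not tested. The summed levels of all 110 members overlapped on day 3, at 970, 813, 1033 and 1029 TPM in controls and 933, 1571, 1299 and 1094 TPM in starved leaves, where starved a lay below 3 of the controls.

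The number of day 3 calls depended on the fit. In one setting the letters of the leaf libraries were treated as pairs within every day, on day 3 correlations of 0.215 to 0.696. Letters b and d of day 3 did not correlate best with their own letter, so the pairing is uncertain. On day 1 the correlations ran from -0.46 to 0.385 and no letter did best with its own, so pairs have no such ground there. With a block for the letters within each day 8 members were called higher instead of 2. Over all features, 40 of 25098 were called higher in that setting instead of 12. Without starved library a of day 3 there were 12 members, beside 69 of 25067 features. Without control c there were 4, beside 20 of 25063, and with array weights 21, beside 261 of 25098. With only the 8 libraries of day 3, or with a pseudocount of 0.1, there were 0 members and 0 features higher. The count over all features thus moved with the setting as well.

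Bo3g163960 had the larger of the called day 3 differences. Its control leaves held 1.36, 0.761, 0.877 and 1.01 TPM on day 3, on 14, 7, 8 and 9 reads, and its starved leaves 6.53, 5.43, 3.61 and 4.93 TPM, on 65, 48, 32 and 43 reads. All 4 starved libraries lay above all 4 controls. The log2 difference was 1.60 (SE 0.20, limma adjusted p = 0.00185), and under other settings the adjusted p ran from 1.23e-05 to 0.172, the last with a pseudocount of 0.1. On day 6 its starved leaves held less than on day 3, at 2.00, 2.51, 3.82 and 1.99 TPM, against 0.558, 0, 0.632 and 0.219 TPM in controls. It was almost absent from roots, at no more than 1.05 TPM in any library.

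Bo5g036350 was the other. On day 3 its control leaves held 0.410, 0.674, 0.772 and 0.476 TPM and its starved leaves 1.39, 1.69, 1.91 and 1.39 TPM. The groups did not overlap, and the log2 difference was 0.71 (SE 0.13, limma adjusted p = 0.0382). This call passed in only 4 of 16 other settings, with limma adjusted p from 0.00239 to 0.231. It was lost with the block of letters within a day (limma, adjusted p = 0.0863). On day 6 the values were 0.440, 0.601, 0.445 and 0.402 TPM in controls and 2.16, 1.90, 2.18 and 1.90 TPM in starved leaves, a tight pair of groups.

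**Figure D3:**
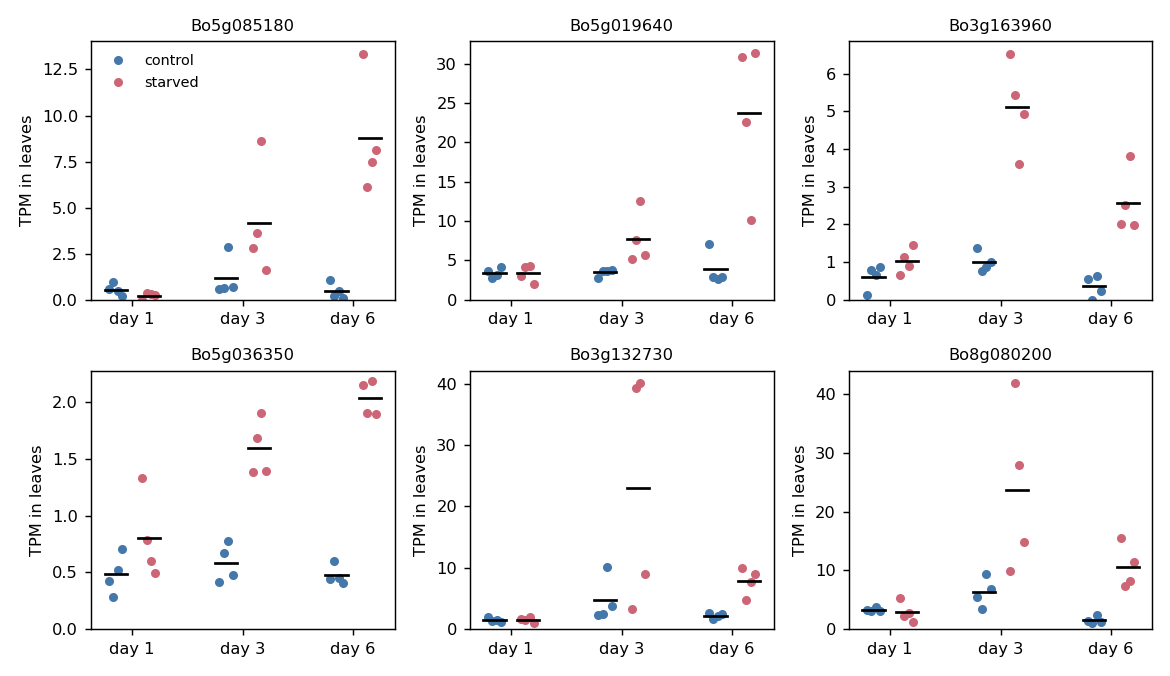
TPM in leaf libraries of 6 members named by rule, by day and treatment; points are libraries and bars are means (n = 4). Bo3g163960, Bo3g132730 and Bo8g080200 had higher starved means on day 3 than on day 6, and Bo5g085180, Bo5g019640 and Bo5g036350 were highest in starved leaves on day 6.

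On day 1 the members showed little. The limma test called 0 of 106, as it called 0 of all 25098 features in either direction (0%), and 6 members and 627 features had an unadjusted p under 0.05. The log2 difference was above 0 in 67 members (63.2%) and in 26.2% of all features, with medians of 0.04 and -0.10. Of the 250 tested features that met the leaf limits but not those for roots, 58.4% were above 0, with a median of 0.03. Scaling moved all features: after rescaling each library by medians of ratios, the median of all features was 0.00 and that of the members 0.12. Every starved library lay above every control in 3 members (2.83%), against 190 features (0.757%; over the 98 members, 3 or 3.06%, against 0.745%), and below in 0, against 188 features (0.749%). The starvation difference of day 3 minus that of day 1 was called for 0 of 106 members and for 0% of all features in either direction. Of the members 22 had an unadjusted p under 0.05 there, 20 with a larger difference on day 3 and 2 with a smaller one, against 705 of 25098 features, 512 larger and 193 smaller. It was above 0 in 78 members (73.6%), near the 73.4% of all features, while the medians were 0.40 and 0.15, or 0.24 and 0.00 after rescaling. In the 250 other leaf features it was above 0 in 87.2%, with a median of 0.60.

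Some members rose over time in starved leaves, where age and time without potassium cannot be told apart. Between day 1 and day 3 in starved leaves, 24 of 106 members rose (22.6%) and 0 fell, beside 1.9% of all features higher and 0.414% lower (limma, adjusted p under 0.05). The medians were 0.49 for the members and 0.17 for all features, and 0.34 and -0.01 after rescaling by medians of ratios. Of the 250 tested features that met the leaf limits but not those for roots, 96 rose (38.4%). This comparison shares the starved libraries of day 3 with the comparison of starvation on that day, so the counts are not independent. Over the 98 members that passed the filter without the starved leaves of day 6, 23 rose (23.5%). With only the 8 libraries compared, 1 member was called higher, beside 20 of 23280 features. Without the libraries of low array weight 15 members were, beside 332 of 25014 features.

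Bo3g132730 had the largest such rise. In starved leaves it stood at 1.54, 1.52, 1.94 and 0.988 TPM on day 1, and day 3 gave 3.25, 39.4, 40.2 and 8.96 TPM. The groups did not overlap, but libraries b and c of day 3 stood far above a and d. The log2 difference was 2.72 (SE 0.50, limma adjusted p = 0.00450), and leaving out libraries moved it between 2.27 and 3.37. With only the 8 libraries compared the call was lost (limma, adjusted p = 0.140). Fed leaves of day 3 held 2.34, 2.49, 10.13 and 3.81 TPM, and starved leaves of day 6 held 10.002, 4.67, 7.74 and 9.04 TPM against 2.56, 1.56, 2.10 and 2.39 TPM in controls.

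Bo8g080200 had the next largest rise. Its starved leaves held 5.21, 2.17, 2.77 and 1.24 TPM on day 1, and day 3 gave 9.81, 42.0, 27.9 and 14.9 TPM, again highest in b and c. The log2 difference was 2.58 (SE 0.36, limma adjusted p = 0.000468), and the highest adjusted p over other settings was 0.0594, with only the 8 libraries compared. Starved leaves of day 3 lay above their fed counterparts, at 5.41, 3.38, 9.31 and 6.78 TPM, in every library, but that difference did not pass (limma, adjusted p = 0.0951). On day 6 it held 15.6, 7.26, 8.14 and 11.4 TPM in starved and 1.43, 0.923, 2.40 and 1.20 TPM in control leaves.

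In fed leaves, 2 of 106 members rose between day 1 and day 3 and 0 fell, beside 0.889% of all features higher and 0.402% lower, and the medians were 0.16 and 0.01. The test of starved against fed change over these days is the difference of day 3 minus day 1 above, which called 0 members. Bo8g049770 held 2.81, 4.05, 3.84 and 4.82 TPM on day 1, and day 3 gave 8.97, 7.63, 5.94 and 6.44 TPM, a log2 difference of 0.76 (SE 0.19, limma adjusted p = 0.0439). Bo7g103980 held 6.53, 4.33, 6.80 and 7.47 TPM on day 1, and day 3 gave 8.93, 14.16, 9.60 and 10.8 TPM, a log2 difference of 0.71 (SE 0.17, limma adjusted p = 0.0331). Their groups did not overlap, but of 15 other settings the first call passed in 1 and the second in 6, with adjusted p up to 0.158 and 0.209. Controls of day 6 held 1.31, 2.08, 3.82 and 2.16 TPM of Bo8g049770, all below its day 3 controls, and 7.81 to 11.2 TPM of Bo7g103980, which overlapped with its day 3 controls.

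Since the controls of day 6 entered the choice, it can be asked how the starved level compares with fed leaves of other days. In 65 of the 110 members (59.1%) the lowest starved library of day 6 lay above all 12 fed leaf libraries, as it did in 175 of the 257 other features (68.1%). In 5 members the starved mean of day 6 did not exceed the highest fed group mean. Controls of day 6 lay wholly below controls of day 1 in 14 members and wholly above them in 11, and in 20 members the ratio of those means was under 0.5. With limma (adjusted p under 0.05), controls of day 6 were lower than those of day 1 in 13.2% of members tested and higher in 1.89%. Of all features tested, 7.12% were lower and 9.51% higher. The limma medians for these controls were -0.10 in members tested and 0.10 in all features. Taken instead from group means plus 1 over all 110 members, the median log2 difference was -0.02 for control day 6 against control day 1. On the same measure it was 1.26 for starved day 6 against control day 1. These are descriptions of libraries that the rule used. The counts without overlap have no share over all features beside them and are not read as a trait of the members.

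A smaller group of members can be set apart by its day 3 values. In 16 of the 110, d in leaves on day 3 was -0.2 or less, a limit set after the values were seen and so given no test. In the limma test of day 3, 0 members were lower at an unadjusted p under 0.05, these 16 included. The median d of the 16 was 0.33 on day 1, -0.35 on day 3 and 1.39 on day 6, where the 94 others had 0.02, 0.46 and 1.35. The day 3 difference between these groups follows from the limit itself. Controls of day 6 had a lower mean than controls of day 1 in 14 of the 16 and in 43 of the 94, and the median log2 ratio of those means was -0.64 and 0.09. Against controls of day 1 the starved level of day 6 was higher by a median of 0.70 in the 16 and 1.37 in the 94. The lowest starved library of day 6 exceeded all 12 fed leaf libraries in 2 of the 16 and in 63 of the 94.

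The summed level of these 16 members varied widely between libraries of a group. It ran from 188 to 400 TPM in controls and from 291 to 716 TPM in starved leaves on day 1, from 275 to 455 and from 124 to 542 on day 3, and from 142 to 169 and from 353 to 672 on day 6. The day 6 controls were thus narrow and at the low end of all fed leaves, and on day 3 the starved libraries held both the lowest and the highest sums of that day. The sum of the 94 others ran from 487 to 540 TPM in controls and from 448 to 607 in starved leaves on day 1, from 539 to 674 and from 764 to 1162 on day 3, and from 436 to 691 and from 1254 to 1806 on day 6. The choice of the 94 by their day 3 values bears on their day 3 sums. Over the 24 leaf libraries the median correlation between pairs was 0.821 among the 16 and 0.665 among the 94, a description of genes that share their libraries. The day 6 libraries chose all these members and the day 3 libraries set the 16 apart. Both choices bear on these correlations, so nothing is read from their difference.

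**Figure D4:**
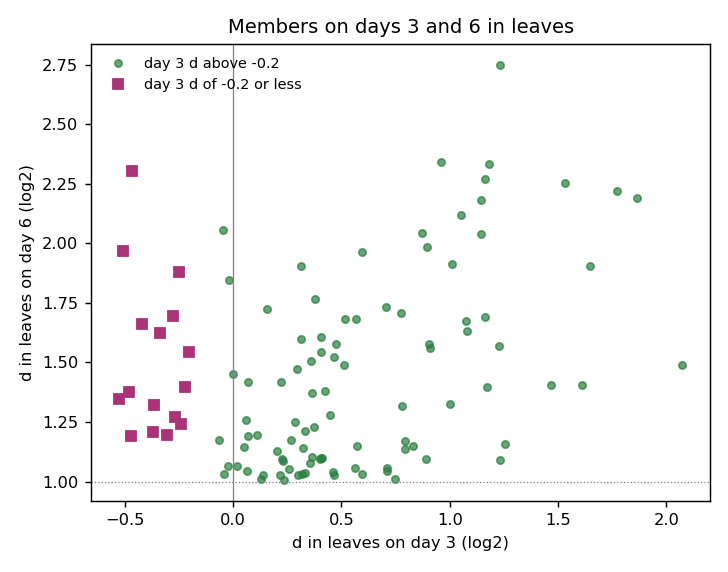
Starvation difference d in leaves on day 3 (horizontal) and day 6 (vertical), both in log2 units, for the 110 members; squares are the 16 members with a day 3 d of -0.2 or less. All members lie at 1 or more on day 6, as the rule requires, and on day 3 they spread from -0.53 to 2.07.

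Of the 16 members, 11 stayed under 1 TPM in every root library, as did 11 of the 94 others. By ID, 8 were of the chromosome form, 5 of the scaffold form and 3 began with ENSRNA, the only members of that form. The 3 were ENSRNA049449483, ENSRNA049453786 and ENSRNA049454459, named here after their values were seen. All features with such IDs held 0.0154 to 0.0206% of the reads in control leaves and 0.0346 to 0.0840% in starved leaves of day 6. On day 1 they held 0.0203 to 0.0569% in controls and 0.0320 to 0.126% in starved leaves. On day 3 the ranges were 0.0324 to 0.0853% in controls and 0.0171 to 0.0597% in starved leaves, so the share varied widely between libraries. Whether that share plays a part in the values of the 16 members was not tested. ENSRNA049453786 held 14.8, 27.3, 18.3 and 18.9 TPM in controls and 76.5, 136, 144 and 50.4 TPM in starved leaves of day 6, but its fed leaves of day 1 held 26.4, 61.7, 97.4 and 85.6 TPM. The starved libraries of day 6 thus overlapped with those of fed day 1 leaves.

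In roots the members ranged from absent to abundant. Their mean over the 12 fed root libraries was at least 10 TPM for 52 members, 1 to 10 TPM for 30 and under 1 TPM for 28, with a median of 7.67 TPM and a highest value of 359 TPM. There were 22 members under 1 TPM in every root library, 1 of which was at 0 in all of them. For a feature near 0 TPM in both fed and starved roots the root limits are met by its low level alone. Their median leaf d was 1.33 on day 6 and -0.12 on day 3, and that of the 88 others was 1.39 and 0.43.

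The summed root level stayed above that of leaves. Its group means were 2779 ± 464 and 2605 ± 73.6 TPM for control and starved roots of day 1 (SD, n = 4 in each group). They were 3219 ± 506 and 2975 ± 491 for day 3, and 2760 ± 152 and 2760 ± 155 for day 6. The fed root mean exceeded the control leaf mean of day 6 in 79 members (71.8%), close to the 69.9% of all features tested, and the starved leaf mean in 49 members (44.5%), against 71.0% of all features. Of the 257 features that met the leaf limits but not those for roots, 89.9% were higher in fed roots than in control leaves, with a median fed root level of 22.8 TPM. A starved leaf therefore held many members at or above their level in fed roots, which is tied to their selection as high in starved leaves.

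**Figure D5:**
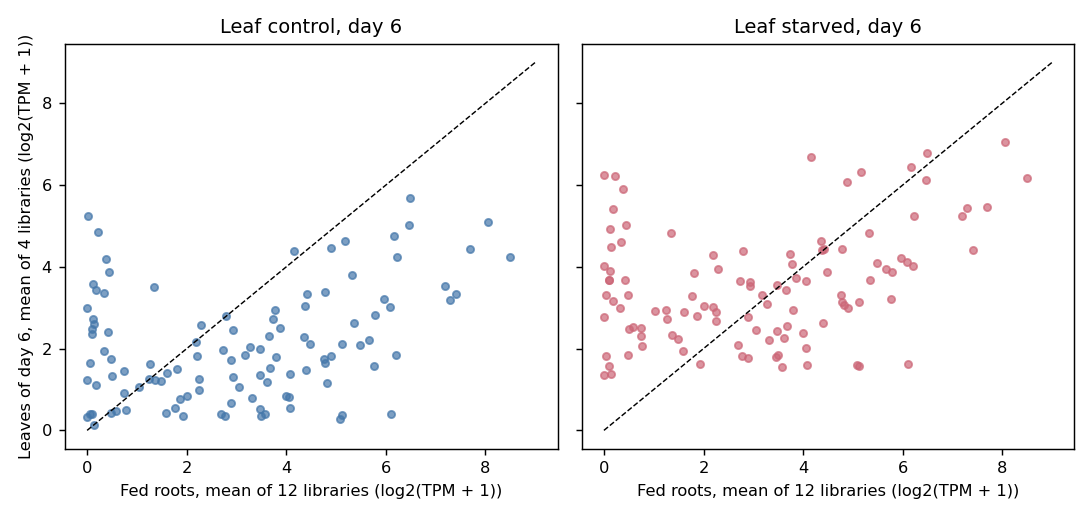
Mean level of each of the 110 members in fed roots (12 libraries, horizontal) against its mean in leaves of day 6 (4 libraries, vertical), both as log2(TPM + 1), for control leaves (left) and starved leaves (right); the dashed line marks equal levels. Fed roots were above control leaves in 79 members and above starved leaves in 49.

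Some members differed between fed roots of day 1 and day 6. These libraries entered the choice through the root limits, though not as days against each other, so the values are a description. With limma, 6 of the 83 members tested in roots were called higher on day 6 and 1 lower, beside 2.27% and 3.98% of all features, and nothing is read from these counts. Bo7g075640 held 9.36, 7.82, 5.74 and 5.87 TPM in fed roots on day 1, and day 6 gave 15.9, 10.29, 15.2 and 20.5 TPM, a log2 difference of 0.99. Bo5g036350, also called in leaves on day 3, held 8.92, 10.8, 10.9 and 9.44 TPM on day 1, and day 6 gave 23.1, 18.6, 24.2 and 18.2 TPM, a log2 difference of 0.99. In both, the days did not overlap.

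Bo2g089980 was the member lower in fed roots on day 6. It held 6.63, 6.84, 6.32 and 7.74 TPM on day 1, and day 6 gave 4.21, 5.45, 3.74 and 4.11 TPM, without overlap, a log2 difference of -0.56. In leaves of day 6 it held 7.69, 4.95, 5.61 and 5.45 TPM in controls and 19.2, 16.8, 7.73 and 36.0 TPM in starved plants, where starved c lay just above the highest control.

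By the form of their IDs, 97 members (88.2%) were on numbered chromosomes, 10 (9.09%) on scaffolds and 3 (2.73%) of the ENSRNA form. Among all features tested in leaves, 3.20% were on scaffolds and 0.546% of the ENSRNA form. The 257 other leaf features had 5.84% and 0.778%. Among the 97, the digit after Bo was 7 in 17 (17.5%, against 10.6%), 6 in 3 (3.09%, against 8.72%) and 3 in 16 (16.5%, against 16.3%). Of all the digits, 7 and 6 lay furthest above and below the share of all features, and no difference was tested. No pair of members had neighbouring ID numbers. The coding length recovered from the TPM steps had a median of 690 bases, with quartiles of 477 and 1198.5 (n = 107), where all features tested had 1053 and the 257 other leaf features 801. Length enters the reads behind a TPM value, so a short member rests on fewer reads at the same level.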

How the data were processed

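Per the labels, total RNA was purified on columns, treated with DNase and sequenced by DNBseq. FastQC 0.11.9, cutadapt 4.1, STAR 2.7.10a and DESeq2 are named in the submitters' processing notes. Genome build, annotation and counter were not given in the sources used here. Values deposited by the authors are TPM that add up to 1000000 per library, so a value is a share of its library. Whole reads were recovered for 44911 of 44911 features above 0 in at least 2 libraries (within 0.05 reads; largest deviation 0.000974), and were used for depth and coding length (99.8% of Bo lengths were multiples of 3). The table had 0 columns of no sample.

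Tests used limma 3.58.1 in R 4.3.3 (lmFit, eBayes with trend) on log2(TPM + 1), 24 libraries per tissue with a term per group, keeping features that reached 1 TPM in 4 libraries or more, and Benjamini-Hochberg adjustment over all features tested. The pseudocount of 1 understates changes of low features. Of the members 106 of 110 passed in leaves, 98 without the starved day 6 libraries, and 83 in roots. The procedure was tested on simulated data, drawn with a single setting for the spread and with changes only in features of many reads. The simulation did not cover changes in members with few reads or libraries of low array weight. Python 3.11.15, numpy 2.4.6 and pandas 2.3.3 were used to read the table and summarise it.

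The members and lists were chosen with earlier results of these data known. Named features are the 2 members of largest leaf day 6 d and, per comparison, at most 2 called members in each direction, those of largest log2 change whose groups did not overlap. Gene lists and sequences were not used, as no ID matched the name table. Same-letter starved and control libraries were correlated as deviations from group means. In leaves on day 3 all 4 correlations exceeded 0.1 (0.215 to 0.696, 2 of 4 best with their own letter). On that ground a setting with letters as pairs was run, a choice that rests on the data, not on the labels. The main tests had no block. Alternatives were a pseudocount of 0.1, no filter, array weights, the letter as a block, leaving out libraries, rescaling by medians of ratios, fitting only the compared groups, a required log2 fold change of 1 and, added after seeing the data, a block of letters within a day.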

Additional observations from a re-analysis of the deposited data

Results flagged for a closer look

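In each group of 4 libraries, the value of every named member and the sum over all members were screened for a library far from the other 3. Of 168 groups 11 were picked out, and chance alone picks out some groups at the level used. The values are given without an explanation.

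In the sum over all 110 members, control a of leaf day 6 stood at 832.1 TPM, where the others held 587.8 to 610 TPM. Bo5g019640 stood at 7.099 TPM in the same library (others 2.596 to 2.937), and at 2.779 TPM in control a of leaf day 3 (others 3.673 to 3.803). Control a of leaf day 3 also stood apart in Bo2g089980, at 3.589 TPM (others 6.334 to 6.774). Bo5g085180 stood at 2.849 TPM in control c of leaf day 3 (others 0.5893 to 0.6829). Of the ENSRNA features, ENSRNA049449483 stood at 2.328 TPM in control a of leaf day 1 (others 5.194 to 5.657) and ENSRNA049453786 at 77.54 TPM in control d of leaf day 3 (others 53.34 to 56.88).

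In roots, Bo3g132730 stood at 25.52 TPM in control d of day 1 (others 11.83 to 12.73) and Bo7g075640 at 10.28 TPM in starved a of day 1 (others 7.862 to 8.251). Bo2g089980 stood at 7.073 TPM in starved c of day 3 (others 4.351 to 4.782) and at 7.541 TPM in starved b of day 6 (others 5.514 to 5.63).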

How the results depend on the processing

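Calls among the members were few and moved with the setting, as did calls over all features. For starvation on day 3 (main count 2) there were 1 without a filter, with a replicate block of letters, without libraries of array weight under 0.2 and at a log2 fold change of at least 1, 0 with a pseudocount of 0.1 or only the groups of the contrast, 21 with array weights, 8 with the replicate block of letters within a day (chosen after seeing the data), and 1 to 12 on leaving out a library, 12 without starved a. The counts over all features in the settings that raised this number are given above. For day 1 and for day 3 minus day 1 there were 0 in every setting run except 2 with array weights for the latter. In that setting 5 of 25098 features were called higher for day 3 minus day 1. For fed leaves between days 1 and 3 (main count 2) there were 1 without a filter, with a pseudocount of 0.1 or rescaled, 0 with the replicate block, without low-weight libraries, at a log2 fold change of at least 1 or only the groups of the contrast, 7 with array weights, and 0 to 1 on leaving out a library. Of all 25098 features, array weights called 1538 higher and 1065 lower in fed leaves. For starved leaves (24) there were 37 with array weights, 15 without low-weight libraries, 1 with only the groups of the contrast and 13 to 25 on leaving out a library, 1 of them lower and 14 higher without starved b of day 3. Of all 25098 features, array weights called 1238 higher and 516 lower in starved leaves. Without low-weight libraries 332 of 25014 features were higher and 210 lower. For fed roots (7, 6 higher and 1 lower) there were 35 with array weights (21 higher, 14 lower), 16 without low-weight libraries (11 higher, 5 lower), 1 at a log2 fold change of at least 1 or with only the groups of the contrast, and 3 to 11 on leaving out a library. Of all 29422 features tested in roots, array weights called 2775 higher and 13185 lower. Without low-weight libraries 1324 of 29344 features were higher and 4691 lower. Nothing is read from the members' counts in these settings. No named member changed sign in its comparison, and the causes were not tested. The median over members kept its sign except in fed roots, where it went from 0.04 to -0.00029 without control c of day 1. The median over all features changed sign in some settings, for example from -0.10 to 0.05 for day 1 without starved d and from 0.06 to -0.04 for day 3 without control a. The number of members was 99 to 256 on leaving out a day 6 leaf library, 256 without control a; it was 158 with a pseudocount of 0.1, 109 with medians and 122 rescaled, of which 72, 90 and 89 were among the 110. Depth limits low members most: 16 had under 40 reads in the fed leaves of day 6.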
